A study of Mus musculus with 8 samples.

Results

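Small RNAs in sperm include fragments that fall within the introns of annotated genes. The loci described here are the introns in the count table with 200 or more counts summed over the 8 libraries, apart from the introns of ribosomal protein genes (symbols starting with Rpl or Rps), of snoRNA host genes named Snhg, and of Gas5, Rbmx, Gpc5, Trim67, Fam20c, Hs1bp3, Crisp1, Adam7 and Cd52. They are 949 introns in 745 genes, out of 132709 intron rows and 1010917 rows of all kinds. Since summed counts chose them, their abundance is given as a description with no test. The smallest introns inside the limit, in 5730522E02Rik, Anxa11 and Celf4, had 200 counts each, and the nearest outside it, in A930011G23Rik, Ypel2 and 4930511A08Rik, had 199, 199 and 198.

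The 8 libraries came from sperm of C57BL/6J mice, 4 labelled EtOH-Cessation (EtOH below) and 4 labelled Control-Cessation (Control below). The series title places them after 1 month without alcohol, so the comparison asks what still differed in sperm small RNA once exposure had ended. The labels give no dose, route, age or batch, and do not tell whether a library holds sperm of 1 animal or of several, so a p-value here reflects spread among 4 libraries a group, which may be technical. Library totals were 6648798, 3116421, 6805989 and 5701404 counts in EtOH replicates 1 to 4, and 4356786, 4210785, 4341914 and 4768713 in Control replicates 1 to 4.

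The libraries carried sperm messenger RNA fragments, as their label says, and fragments of genes listed for other cell types in unequal amounts. Whether the latter came from other cells was not tested. All 12 genes of a sperm and late spermatid list were present. Their exons summed to 321 to 473 counts per 1000000 counts of the library (CPM) in EtOH libraries. The sum was 518 to 622 CPM in Control libraries. Smcp, Odf1 and Prm1 did not overlap between the groups. They had at most 110, 96.1 and 22.2 CPM in EtOH libraries and at least 142, 98.1 and 24.2 CPM in Control libraries. Every other gene of that list overlapped. Akap4 had 5.97 and 6.41 CPM in Control replicates 1 and 2, below all EtOH libraries. A list of 11 epididymal epithelium genes summed to 2570, 16900, 696 and 1190 CPM in EtOH replicates 1 to 4, and to 340 to 540 CPM in Control libraries. That sum was nearly all Crisp1, Adam7, Spink8 and Wfdc10, at 12200, 1920, 1460 and 1320 CPM in EtOH replicate 2. Wfdc10 had 9.12 CPM in EtOH replicate 4, below its 11.2 CPM in Control replicate 1. The other genes of the list had at most 4.17 CPM in any library, and Lcn8 and Cst11 had 0 in EtOH replicate 2. Leukocyte genes summed to 129 to 3500 CPM in EtOH libraries and 60.1 to 72.1 CPM in Control libraries, again with the highest value in EtOH replicate 2. That sum was nearly all Cd52, with 123 to 3470 CPM in EtOH libraries and 45.6 to 64.7 CPM in Control libraries. Cd52 ranked the EtOH libraries in the same order as Crisp1 of the epididymal list, and both genes were above all Control libraries in each. Resting on Cd52, the sum cannot tell whether leukocyte RNA differed between the groups, and the cell source of Cd52 was not tested. Ptprc, the pan-leukocyte surface marker, had 0.294 to 1.05 CPM in EtOH libraries and 0.459 to 1.47 CPM in Control libraries, and Lyz2, a myeloid lysozyme gene, had 0.451 to 1.6 CPM in EtOH libraries and 0.918 to 3.09 CPM in Control libraries, so both overlapped between the groups. Cd74 and Itgam were highest in EtOH replicate 2, at 18.3 and 11.6 CPM, beside at most 11.6 and 2.3 CPM in Control libraries. Lists for red blood cells, smooth muscle and somatic testis summed to at most 40.3 CPM in EtOH libraries and 96.4 CPM in Control libraries. No gene of the 6 lists was at 0 over all libraries. In such bulk samples, fewer cells of a type and less RNA per cell cannot be told apart.

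Introns are spliced out of precursor RNA and are mostly degraded, but some carry small RNA genes that survive. Small nucleolar RNAs (snoRNAs) are cut from introns and guide chemical modification of ribosomal RNA: box C/D snoRNAs guide ribose methylation, and box H/ACA snoRNAs guide conversion of uridine to pseudouridine. Some microRNAs (miRNAs) are also cut from introns. Piwi-interacting RNAs (piRNAs), abundant small RNAs of the mouse testis, come largely from long cluster transcripts, and some of them hold transposons in check in germ cells.

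Introns were placed on GENCODE transcripts of build GRCm38 to see what the reference annotates within them, which could be done for 930 of the 949. The table numbers introns from 0 along the genome, which was read from where known snoRNAs fall: counted that way, 52 of 465 placed introns of minus-strand genes held a snoRNA of the same strand, against 14 when counted from the gene's start. The sources used here state neither the submitters' build nor the strand rule of their counting, so no intron coordinates are printed and a locus cannot be assigned to 1 strand. Members were put in 1 class each, by the first kind found in the order snoRNA, miRNA gene, tRNA gene and other small RNA of the same strand (tRNA genes of either strand). The classes held 93 members (65 genes), 27, 1 and 20. Since introns can hold several kinds, miRNA genes lay in 32 members in all, 5 of them in the snoRNA class, and tRNA genes in 2. In 1 of those 5, of Alkbh1, the reference gives the name Mir3068 to both the snoRNA and the miRNA entry. In 50 members such genes lay on the opposite strand only, and in 739 there was none. Of the 130729 introns under 200 counts that could be placed, 275 (0.21%) held a snoRNA, against 93 of 930 members. Members were also long, with a median length of 33717 bases against 2183 bases for introns under the limit, and the introns with snoRNAs were short, with a median of 983 bases.

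The 8 snoRNAs below lie in introns described further on, which include the member that passed the test and those with the lowest p-values among introns with a negative fold change. They are the GENCODE transcripts on GRCm38, written as DNA. Capitals mark the C box core TGATG within 20 bases of the 5′ end together with the D box CTGA within 20 bases of the 3′ end, or otherwise the ACA that lies 3 bases (1 either way) from the 3′ end.
Snora28 (in Eif5, chr12:111540941-111541067, plus strand): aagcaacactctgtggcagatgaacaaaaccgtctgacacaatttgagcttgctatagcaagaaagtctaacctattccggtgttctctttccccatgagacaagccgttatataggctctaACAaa
Gm23297 (in Nap1l4, chr7:143531394-143531520, minus strand): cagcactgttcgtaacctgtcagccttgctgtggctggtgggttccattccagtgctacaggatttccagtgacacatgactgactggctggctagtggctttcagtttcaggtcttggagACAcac
Snord17 (in Snx5, chr2:144265979-144266216, minus strand): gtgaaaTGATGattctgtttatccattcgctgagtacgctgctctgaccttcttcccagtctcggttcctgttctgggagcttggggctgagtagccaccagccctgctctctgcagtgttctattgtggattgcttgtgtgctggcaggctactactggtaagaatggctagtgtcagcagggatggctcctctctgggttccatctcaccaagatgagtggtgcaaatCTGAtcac
Snord70 (in Nop58, chr1:59691934-59692020, plus strand): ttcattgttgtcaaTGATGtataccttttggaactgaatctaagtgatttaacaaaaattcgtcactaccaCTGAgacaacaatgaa
Gm26293 (in Nop58, chr1:59692509-59692592, plus strand): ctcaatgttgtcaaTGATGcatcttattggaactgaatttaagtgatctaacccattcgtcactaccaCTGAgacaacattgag
Gm25296 (in Rack1, chr11:48800866-48800932, plus strand): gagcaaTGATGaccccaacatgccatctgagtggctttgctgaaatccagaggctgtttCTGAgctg
Snord98 (in Ccar1, chr10:62765576-62765640, minus strand): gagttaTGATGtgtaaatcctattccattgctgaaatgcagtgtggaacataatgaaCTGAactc
Gm24067 (in Ppan, chr9:20889484-20889568, plus strand): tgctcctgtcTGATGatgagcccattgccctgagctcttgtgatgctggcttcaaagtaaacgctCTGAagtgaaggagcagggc

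The first 2 sequences end in the H/ACA tail and the other 6 carry both C/D boxes. Of the 90 snoRNA transcripts inside members, 56 (62.2%) had both C/D boxes by this search, 25 (27.8%) had the ACA and no C/D pair, and 9 had neither. Over all 1558 snoRNA and scaRNA transcripts of the reference the shares were 23.1%, 43.8% and 33.1%. The boxes were searched on the transcript strand only, and a transcript without them may be annotated with other ends.

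Together the members held 1436732 counts, and a few introns held most of them. The median member had 336 counts, 577 members had fewer than 400, 117 had 1000 or more and 18 had 10000 or more. They made up 4.0%, 3.49%, 4.11% and 3.15% of all counts in EtOH replicates 1 to 4, and 3.6%, 3.1%, 3.36% and 3.55% in Control replicates 1 to 4. The EtOH mean was 3.69% ± 0.447 and the Control mean 3.4% ± 0.227 (SD, n = 4 each), and the libraries of the groups overlapped. Exact 95% binomial intervals of these shares reached at most 0.02 percentage points either side and cover counting error only. Of the counts in introns, members held 50.7% ± 5.31 in EtOH libraries and 46.5% ± 4.5 in Control libraries (SD, n = 4 each).

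The largest locus was intron 1 of LOC100125594, a non-coding gene on chromosome 2, with 234344 counts, 16.3% of all member counts. Its exons had 1270 counts. Intron 19 of Pcsk5, which encodes a proprotein convertase, on chromosome 19, came next with 155744 counts, beside 26 counts in the exons of the gene. Intron 29 of Myo3a, a motor protein gene on chromosome 2, had 82632 counts beside 9 in exons. In each of the 3 genes the intron held nearly all of the reads counted for the gene.

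The next were intron 2 of Gm10619, intron 3 of Gm21221, intron 2 of Stox1 (a transcription factor gene), intron 2 of Kcnk10 (a potassium channel gene) and intron 8 of Prkca (protein kinase C alpha), with 65866, 54686, 52484, 46050 and 38844 counts. Intron 3 of Gm2762, intron 0 of Stox1, intron 1 of Kcnk10 and intron 11 of Snx5, a sorting nexin gene, had 25962, 19264, 18730 and 18619. Of these genes, Gm10619 and Stox1 also had many exon counts, 49377 and 18608. Counts of several introns in a gene, and of rows for alternative transcripts, are not separate signals: 143 genes had more than 1 member, and 21 members had counts identical to those of another.

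**Figure D1:**
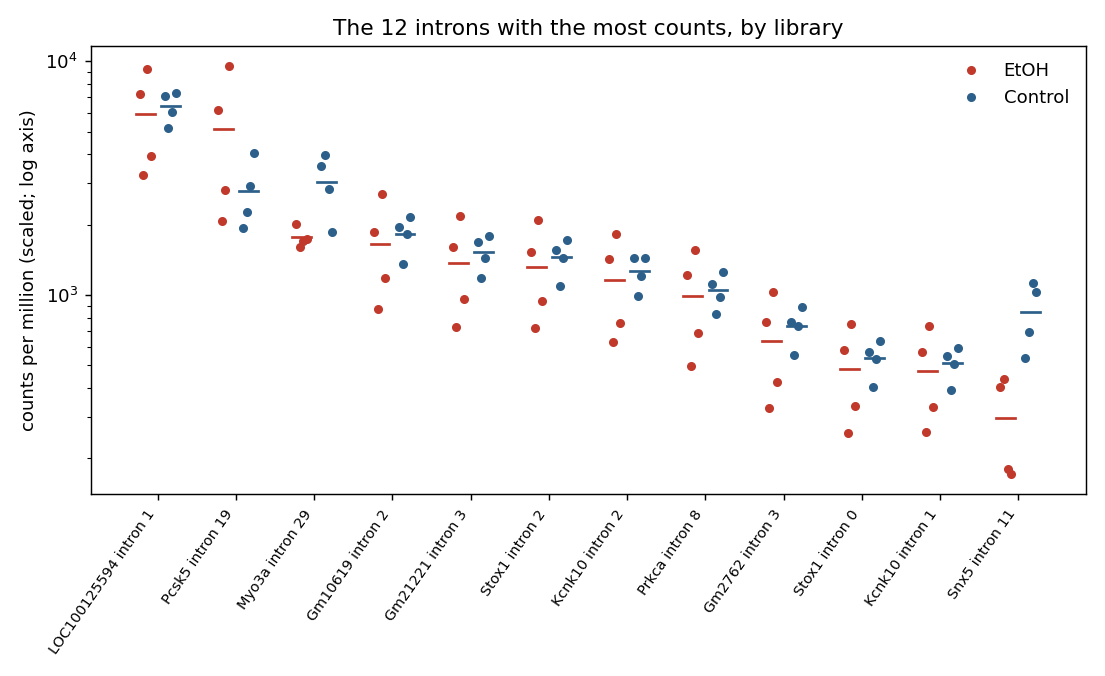
CPM on a log axis (scaled library sizes) for the 12 introns with the most counts; each point is 1 library, bars are group means (n = 4 each), EtOH in red and Control in blue. In 9 of the 12 the EtOH libraries spread above and below the Control libraries, while Pcsk5, Myo3a and Snx5 have patterns that differ from those 9.

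Of the 12 largest introns, 9 varied from library to library as the piRNA clusters did. piRNA cluster rows held 25.7%, 13.0%, 34.5% and 14.4% of counts in EtOH replicates 1 to 4, and 23.6%, 14.7%, 20.3% and 25.1% in Control replicates 1 to 4. Intron 2 of Stox1 had 0.572 to 0.594 counts for every 100 piRNA cluster counts in all 8 libraries, so its level per library could be read from the clusters almost exactly. The largest locus, in LOC100125594, had 2.45 to 2.75.

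To describe this, the 8 values of each intron on the log2 CPM scale were centred and set against those of all piRNA clusters summed, and a root mean square difference under 0.2 was called piRNA-tracking. By this measure 47 members in 33 genes tracked the clusters, and they held 685849 counts, 47.7% of all member counts. With limits of 0.1 and 0.3, the number was 23 and 75 and the share of counts 45.8% and 48.7%, so the share rests on a few large loci. Summed, the 47 introns had 7.32 to 7.79 counts per 100 piRNA cluster counts in every library. The limit was chosen after the values were seen, and the measure shows only a shared profile over 8 libraries, which also share depth and composition.

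**Figure D2:**
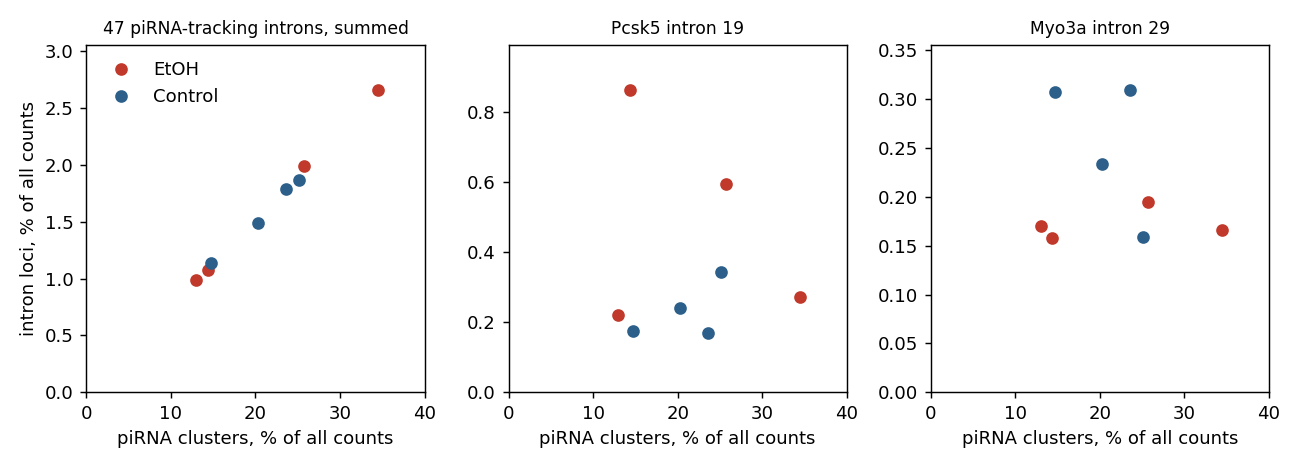
Share of all counts in the 47 piRNA-tracking introns, in intron 19 of Pcsk5 and in intron 29 of Myo3a (vertical axes, %) against the share in piRNA clusters (horizontal axes, %); each point is 1 library, EtOH in red and Control in blue. The tracking introns lie on a line from 0.989% to 2.66%, with EtOH replicate 3 highest, and the other introns do not.

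Introns were not the class most like the clusters. Of rows with 200 or more counts, the same difference was met by 157 of 181 piRNA cluster rows (86.7%), 257 of 522 antisense repeat rows (49.2%), 171 of 493 sense repeat rows (34.7%), 4 of 26 hairpin rows (15.4%), 116 of 2058 exon rows (5.64%) and 47 of 1004 intron rows (4.68%). It was met by none of 198 miRNA rows and 628 structural RNA rows. The cluster rows make up the sum they were set against, so their share is in part built in. Rows of other classes may also hold the same reads as the clusters. Among the tracking hosts, LOC100125594, Gm10619, Gm21221, Gm2762, Gm10069, 4930444F02Rik and 4932702P03Rik are named without a known protein function. Others were Cbx7, a Polycomb gene, Chst1, a sulfotransferase gene, and Ago2, which encodes the Argonaute slicer of small RNA pathways. Cluster rows in the table are named for 73 genes, and 7 of those genes had members, 11 introns in all. Of the 11, intron 17 of Ago2 and intron 0 of 1700006A11Rik were within the limit, at 0.098 and 0.122. The introns of Mgll, a lipase gene, and of Foxo3, a forkhead transcription factor gene, were far outside it, at 0.706 to 0.772 and 0.791.

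Since these introns were picked for a near-constant ratio to the clusters, the choice itself ties their difference between the groups to that of the clusters. Their log2 fold changes (EtOH over Control) had a median of -0.12 with quartiles of -0.15 and -0.08, and none of the 47 had an unadjusted p below 0.05. LOC100125594 intron 1 had 7266, 3263, 9284 and 3921 CPM in EtOH replicates 1 to 4, against 7117, 5199, 6079 and 7310 CPM in Control replicates 1 to 4. EtOH replicates 2 and 4 were the lowest and EtOH replicate 3 the highest of all. The tracking introns summed to 1.68% ± 0.796 of all counts in EtOH libraries and 1.57% ± 0.333 in Control libraries (SD, n = 4 each). The EtOH libraries spread more widely than the Control libraries.

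Pcsk5 and Myo3a did not follow the clusters, with differences of 0.912 and 0.634. Pcsk5 intron 19 had 6165, 2078, 2809 and 9501 CPM in EtOH replicates 1 to 4, against 1943, 2257, 2928 and 4029 CPM in Control replicates 1 to 4. EtOH replicates 1 and 4 lay above every Control library and the other EtOH libraries lay among them (log2 fold change 0.88, SE 0.49, edgeR adjusted p = 0.263). Myo3a intron 29 had 2015, 1610, 1709 and 1738 CPM in EtOH libraries, against 3554, 3960, 2849 and 1858 CPM in Control libraries. All but Control replicate 4 lay above the EtOH libraries (log2 fold change -0.79, SE 0.35, adjusted p = 0.17). The largest member annotated with another small RNA, intron 2 of Zfp804b, a zinc finger gene, had 171 ± 69.9 CPM in EtOH libraries and 407 ± 192 CPM in Control libraries (SD, n = 4 each; adjusted p = 0.102), and was picked after its values were seen. None of these introns passed the test.

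By the edgeR quasi-likelihood test over all 10234 features that passed the filter on low counts, 1 of 948 members tested differed between the groups at an adjusted p below 0.05. That is 0.105% of members, beside 19 features (0.186%) over all features, 5 higher (0.0489%) and 14 lower (0.137%) in EtOH libraries. Intron 1 of Rspo3, with 201 counts, was the member not tested. Among the members tested, 180 had under 100 raw counts in 1 of the groups, so most of their counts came from the other group. The rule itself can in part give the direction of such members. Library totals differ, so at that group's CPM some of the 180 would still reach 200 counts, and members outside them may not. Of the 180, 77 had fitted values above 0, 101 below 0 and the other 2 values that round to 0.00, and 6 were snoRNA introns. They include, of the introns described below, those of Eif5, Ccar1, Pde10a, Tenm3, Gpc6 and Spag16 through the Control libraries, and those of Dhx32, Inpp5f, Cdkn1a and Pnck through the EtOH libraries. The count moved with the libraries used: without EtOH replicate 2 it was 11 members higher and 37 lower (2.36% and 1.83% over all features), and without EtOH replicate 3 it was 25 and 36 (16.5% and 3.63%). Without EtOH replicate 1 it was 10 and 3 (2.84% and 0.371%). It was 0 without EtOH replicate 4 (0.0277% over all features) and without any 1 of the Control libraries (0.0624%, 0.079%, 0.0624% and 0.171%). DESeq2 gave 16 members higher and 57 lower (13.1% and 3.95% over all features) and limma voom 11 and 37 (4.06% and 2.34%).

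The member that passed was intron 5 of Eif5, the gene of a translation initiation factor, which holds Snora28. It had 3.90, 5.15, 4.39 and 4.05 CPM in EtOH replicates 1 to 4, against 12.4, 26.6, 29.5 and 19.9 CPM in Control replicates 1 to 4. All EtOH libraries lay below all Control libraries. The means were 4.37 ± 0.556 CPM in EtOH libraries and 22.1 ± 7.63 CPM in Control libraries (SD, n = 4 each). The log2 fold change was -2.34 with an SE of 0.41 (edgeR adjusted p = 0.0412). With 92 counts in EtOH libraries and 320 in Control libraries, its Control counts made it a member. Its p-values are thus no separate support for its direction. The adjusted p was 0.0612 with median-of-ratios factors, 0.0558 with library size alone, 0.0814 without EtOH replicate 4, and 0.0804 to 0.112 without 1 of the Control libraries, so these settings end the call. DESeq2 gave 3.2e-06 and limma voom 0.0121.

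As a whole the members leaned lower in EtOH libraries than features in general. Of the 948, 762 (80.4%) had fitted values below 0, beside 5652 of 10234 features (55.2%), and 186 were above 0, beside 44.8% of features. The median log2 fold change was -0.36, beside -0.09 over all features. At an unadjusted p below 0.05, 32 members (3.38%) were higher and 145 (15.3%) lower, beside 17.9% and 9.15% of all features. Groups did not overlap, with EtOH above Control, in 12 members (1.27%, beside 7.34% of all features), and with EtOH below Control in 149 (15.7%, beside 7.81%). The position of 0 depends on the scaling. With library size alone the medians were -0.08 for members and 0.18 for all features, and with scaling factors from intron rows they were 0.10 and 0.35. The members' median stayed 0.18 to 0.44 below that of all features under the settings tried.

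**Figure D3:**
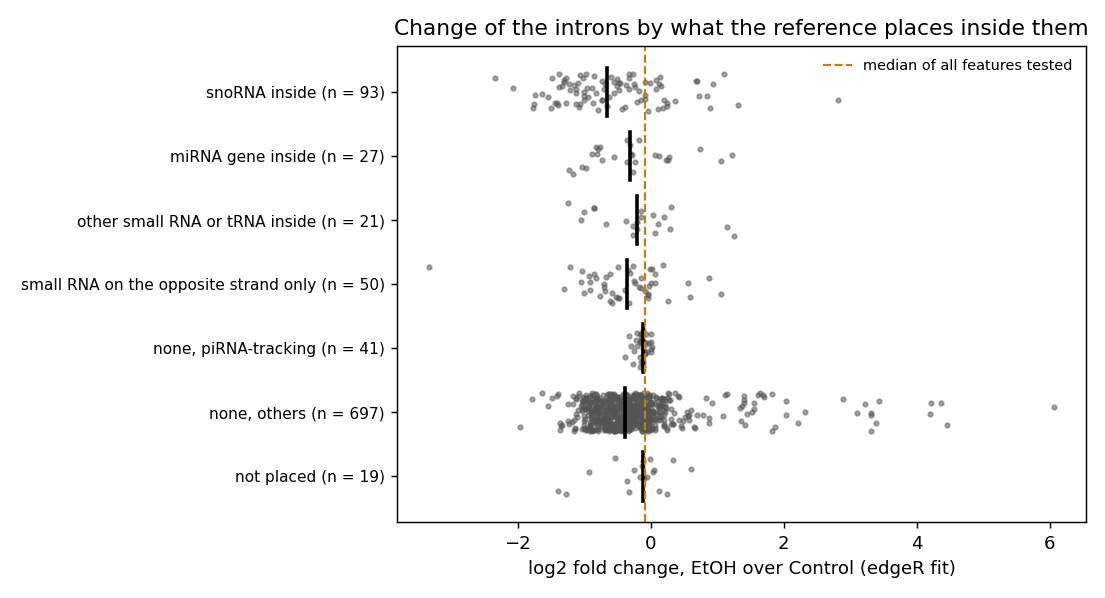
Log2 fold change (EtOH over Control, edgeR fit, horizontal axis) of the 948 tested introns, grouped by what the reference annotates inside them; each point is 1 intron, black bars are medians and the dashed orange line is the median of all features, -0.09. With all 8 libraries the introns with a snoRNA have a median of -0.66, the piRNA-tracking introns lie in a narrow band, and the points above 2 are mostly introns with no annotated small RNA.

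Introns of the snoRNA class lay lowest among the classes with more than 1 member when all libraries were used. The 93 had a median log2 fold change of -0.66, with quartiles of -1.13 and -0.08, beside -0.35 for the 855 other members tested and -0.09 for all features. Of the 93, 73 had fitted values below 0, and 35 were lower and 1 higher at an unadjusted p below 0.05 (9.15% and 17.9% of all features). Past the adjusted threshold 1 was lower by edgeR, 26 were lower and 1 higher by DESeq2 (3.95% and 13.1% of all features), and 27 and 1 by limma voom (2.34% and 4.06%). Summed, they had 3200, 7080, 2010 and 1550 CPM in EtOH replicates 1 to 4, against 3480, 4220, 4320 and 3960 CPM in Control replicates 1 to 4. EtOH replicate 2 was the highest of the 8 and the other EtOH libraries were the lowest 3.

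Without EtOH replicate 2 the median of the snoRNA introns was -1.18, beside -0.01 for all features, and 32 of the 93 were lower and 1 higher past the adjusted threshold (1.83% and 2.36% of all features). Of the other members outside the piRNA-tracking group, 5 of 808 were lower and 10 higher in that fit. The order of the classes turned on the EtOH libraries used. With the EtOH libraries of M identifiers alone the snoRNA introns had a median of -0.49, above the -0.61 of introns with no small RNA, and without EtOH replicate 4 they had -0.47, above the -0.53 of introns with small RNAs on the opposite strand only. Both kinds of snoRNA leaned lower with all libraries. The 57 introns with C/D boxes alone had a median of -0.60, or -1.24 without EtOH replicate 2, and the 25 with the ACA alone had -0.85, or -1.24. EtOH replicate 2 also had the highest sum of epididymal marker exons, and their part in its snoRNA counts was not tested.

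Among introns with a negative fold change, the next lowest p-values were also those of snoRNA hosts, apart from intron 1 of Pde10a, a phosphodiesterase gene. Intron 1 of Nop58, which encodes a core protein of box C/D snoRNA particles and is itself a snoRNA host (Snord70), had 53.5, 38.8, 37.9 and 27.98 CPM in EtOH replicates 1 to 4, against 93.9, 129, 154 and 150 CPM in Control replicates 1 to 4. Intron 2 of the same gene (Gm26293) had 16.9, 18.8, 9.995 and 11 CPM in EtOH libraries, against 33.8, 35.2, 36.0 and 33.9 CPM in Control libraries. Groups did not overlap in either intron. Their log2 fold changes were -1.74 and -1.30 (SE 0.38 and 0.37, edgeR adjusted p = 0.0525 and 0.0555).

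Intron 0 of Rack1, the gene of a ribosomal scaffold protein (Gm25296), had 80.5, 89.6, 66.3 and 50.4 CPM in EtOH replicates 1 to 4, against 184, 197, 307 and 203 CPM in Control replicates 1 to 4. Intron 11 of Snx5 (Snord17), the largest snoRNA locus, had 405, 438, 181 and 172 CPM in EtOH libraries, against 539, 696, 1123 and 1027 CPM in Control libraries. All EtOH libraries were below all Control libraries in both. The log2 fold changes were -1.64 and -1.50 (SE 0.37 and 0.44, edgeR adjusted p = 0.0525 and 0.0592). Without EtOH replicate 2 they were -1.76 and -1.75 (adjusted p = 0.03 and 0.0415).

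The remaining ones had smaller counts. Intron 12 of Ccar1, a cell cycle and apoptosis regulator (Snord98), had 4.57 ± 1.05 CPM in EtOH libraries and 15.5 ± 4.78 CPM in Control libraries. Intron 2 of Ppan, a ribosome biogenesis gene (Gm24067), had 11.9 ± 2.23 CPM in EtOH libraries and 33.1 ± 4.92 CPM in Control libraries. Intron 6 of Nap1l4, a histone chaperone gene (Gm23297), had 6.28 ± 4.02 CPM in EtOH libraries and 26.1 ± 8.07 CPM in Control libraries (SD, n = 4 each). Their log2 fold changes were -1.76, -1.48 and -2.07, with an edgeR adjusted p of 0.0525 for each, and no EtOH library overlapped a Control library. Ccar1 had 98 counts in EtOH libraries and 229 in Control libraries, so its Control counts made it a member. Intron 1 of Pde10a, with no small RNA annotated inside, had 3.66 ± 0.719 CPM in EtOH libraries and 14.4 ± 4.68 CPM in Control libraries (SD, n = 4 each; log2 fold change -1.97, adjusted p = 0.0525). It too was a member through its Control counts, with 77 counts in EtOH libraries and 207 in Control libraries. The p-values of Ccar1 and Pde10a are thus no separate support for their direction.

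**Figure D4:**
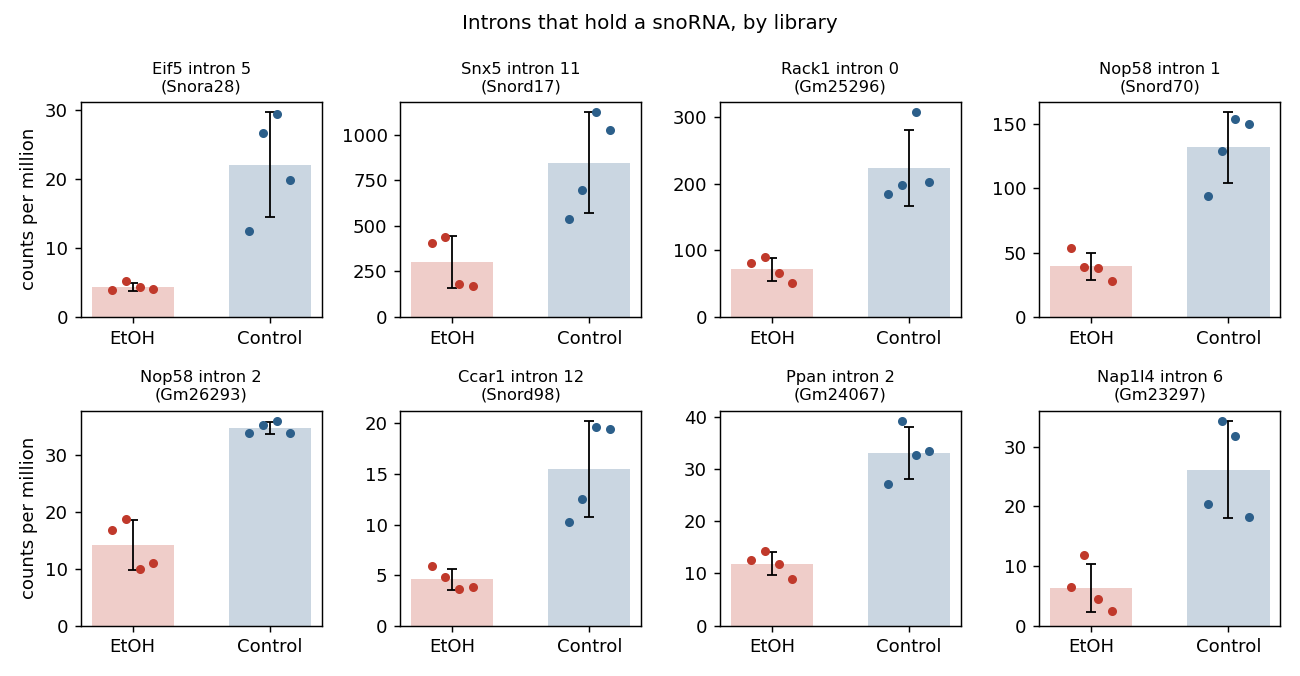
CPM in each library for 8 introns that hold a snoRNA (named in brackets), EtOH in red on the left and Control in blue on the right; bars are means, error bars SD, n = 4 each. In every panel the EtOH libraries lie below all Control libraries. All but Snx5 were chosen for a low p or a wide gap between groups, so this separation is in part built in. Eif5 and Ccar1 were members through their Control counts.

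Other introns of snoRNA hosts had values near or above 0. Intron 2 of Gltscr2, a nucleolar protein gene also called Nop53 (Snord23), had 128, 105, 257 and 270 CPM in EtOH replicates 1 to 4, against 241, 288, 152 and 201 CPM in Control replicates 1 to 4, and the groups overlapped (log2 fold change -0.21, edgeR adjusted p = 0.816). Intron 3 of Eef2, an elongation factor gene (Snord37), had a log2 fold change of -0.01. Intron 5 of Eif4a2, the gene of a translation initiation helicase (Snora81), went the other way, with 234, 41.5, 53 and 16.01 CPM in EtOH replicates 1 to 4, against 8.44, 11.6, 7.31 and 21.6 CPM in Control replicates 1 to 4. EtOH replicate 1 held 66.5% of its counts, and EtOH replicate 4 lay within the Control range (log2 fold change 2.81, adjusted p = 0.0525). The neighbouring intron 6 of the same gene, which holds Gm26447, had -0.69 (adjusted p = 0.418). These 3 genes, and the next intron of Eif4a2, were picked after their values were seen.

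Some snoRNAs have a row of their own in the table, and in most pairs it was not the larger holder of these counts. A row of its own was found for 30 snoRNAs in 34 member introns, and the intron row was larger than the snoRNA row in 28 of the 34. Intron 1 of Nop58 had 2802 counts and Snord70 itself 282. For Eif5 the numbers were 412 in the intron and 374 for Snora28, and for Snx5 18619 in the intron and 7752 for Snord17. Other pairs went the opposite way. Ccar1 had 327 in the intron and 1625 for Snord98, and Rc3h2 had 955 in the intron and 6365 for Snord90. No source used here says how reads over a snoRNA were divided between the rows. Of the 26 snoRNA rows that were tested, 23 had fitted values below 0, beside 55.2% of all features. Their median log2 fold change was -0.70, beside -0.09 over all features. None passed the adjusted threshold by edgeR, and the lowest adjusted p was 0.0618, for Snord11. The snoRNA rows leaned the same way as the introns around them. They may hold the same reads, so they are no separate support.

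The pair of rows did not always move together. Snord17 had 817, 2476, 540 and 294 counts in EtOH replicates 1 to 4, against 573, 690, 1337 and 1025 counts in Control replicates 1 to 4, with EtOH replicate 2 highest (log2 fold change 0.04, against -1.50 for the intron). Snora28 had 34, 64, 26 and 6 counts in EtOH libraries, against 39, 102, 47 and 56 counts in Control libraries (log2 fold change -1.23, edgeR adjusted p = 0.265). Snora81 had a log2 fold change of 0.16, against 2.81 for its intron. Snord98 had 340, 121, 230 and 145 counts in EtOH replicates 1 to 4, against 190, 168, 240 and 191 in Control replicates 1 to 4. The groups overlapped, with a log2 fold change of -0.50 (edgeR adjusted p = 0.408), against -1.76 for the Ccar1 intron. Snord90 had 1.46 (edgeR adjusted p = 0.264), against -0.23 for the Rc3h2 intron. These differences between a row and its intron were not tested.

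Hosts of small RNAs and other host groups were read from lists of genes. Of 40 protein-coding snoRNA hosts, 22 had members, 35 introns in all, with a median log2 fold change of -0.85. Of the 35, 16 were lower and 1 higher at an unadjusted p below 0.05, and 0 passed the adjusted threshold by edgeR, while 12 were lower and 1 higher by DESeq2. Over all features, 9.15% were lower and 17.9% higher at that unadjusted p, and 3.95% and 13.1% by DESeq2. Nop58 intron 1, Rack1, Nap1l4 and Ppan, given above, had the lowest p of this list.

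For some introns with a miRNA gene the mature product could be read from the table too. Mature miRNA rows existed for 12 member introns in 11 genes, and only in 3 did a mature miRNA exceed the intron row. For these and for Srebf2 the mature sequences (RefSeq, GRCm38.p6) are shown, with the seed, bases 2 to 8, in capitals, to set the product beside the intron count.
let-7f-5p (in Huwe1): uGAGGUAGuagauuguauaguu
miR-98-5p (in Huwe1): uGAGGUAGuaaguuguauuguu
miR-10b-5p (in Hoxd3): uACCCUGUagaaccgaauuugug
miR-200b-3p (in Gm13648): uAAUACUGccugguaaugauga
miR-33-5p (in Srebf2): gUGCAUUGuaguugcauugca

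The first 2 share their seed. Intron 58 of Huwe1, a ubiquitin ligase gene, had 271 counts, while the let-7f-5p row, to which another gene copy also contributes, had 197500 and miR-98-5p 331. Intron 0 of Hoxd3, a homeobox gene, had 507 counts beside 36435 for miR-10b-5p, and intron 0 of Gm13648 had 1082 beside 41330 for miR-200b-3p. Intron 15 of Srebf2, the gene of a sterol-sensing transcription factor, had 467 counts, beside 3 for miR-33-5p. The direction of intron and product could differ: the Huwe1, Hoxd3 and Gm13648 introns had log2 fold changes of 0.23, 0.13 and 0.74, and let-7f-5p, miR-10b-5p and miR-200b-3p had -1.49, -0.73 and -0.78.

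The 27 members with a miRNA gene had a median of -0.31, and 4 were lower at an unadjusted p below 0.05, a share close to the 15.3% of all members, beside 9.15% of all features. From a list of 49 intronic miRNA hosts, 7 genes had 1 member each, with a median of -0.67. The 4 with the lowest p were Srebf2, Trpm3, an ion channel gene, Slit3, an axon guidance gene, and Tln2, a talin gene, at -1.23, -1.03, -1.04 and -0.67 (edgeR adjusted p = 0.12, 0.146, 0.175 and 0.292). In Srebf2 the values were 9.21, 10.9, 10.2 and 3.47 CPM in EtOH replicates 1 to 4, against 9.76, 22.1, 31.2 and 16.5 CPM in Control replicates 1 to 4, and the groups overlapped. None passed the adjusted threshold, and the Trpm3 intron has only an opposite-strand small RNA annotated while those of Slit3 and Tln2 have none.

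Genes with very long introns made up many small members. From a list of 67 such genes, 40 had members, 68 introns with a median length of 308617 bases, a median of 338.5 counts and only 1.23 counts per 1000 bases, against 1070 for the snoRNA introns. Their median log2 fold change was -0.60, and 19 were lower and 0 higher at an unadjusted p below 0.05, while 0 passed by edgeR and 4 were lower by DESeq2. Over all features 9.15% were lower and 17.9% higher at that unadjusted p, and 3.95% were lower by DESeq2, beside 6.01% of all members. The 4 with the lowest p were Tenm3, which encodes a teneurin, Gpc6, a glypican gene, Nrxn3, a neurexin gene, and Opcml, a cell adhesion gene. Tenm3 intron 24 had 5.77, 0.606, 2.73 and 1.93 CPM in EtOH replicates 1 to 4, against 13.5, 9.19, 9.84 and 6.88 CPM in Control replicates 1 to 4, with no overlap (log2 fold change -1.78, edgeR adjusted p = 0.0637). Gpc6, Nrxn3 and Opcml had -1.35, -1.37 and -1.17 (adjusted p = 0.0797, 0.0952 and 0.107). Tenm3 and Gpc6, with 67 and 94 counts in EtOH libraries against 144 and 160 in Control libraries, were members through their Control counts. The p-values of Tenm3 and Gpc6 are thus no separate support for their direction. Nrxn3 had 264 counts in all and a fold change like that of Gpc6. The same limit may hold for its p, though it had 100 or more counts in each group.

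Genes of sperm formation were read from a list that does not cover all such genes. Of its 66 germ cell genes, 5 (Akap4, Odf2, Prm1, Spag16 and Tnp2) had 6 members, with a median log2 fold change of -0.64. All 6 fitted values were below 0, beside 80.4% of all members and 55.2% of all features. At an unadjusted p below 0.05 by edgeR, 1 of the 6 was lower, beside 15.3% of all members and 9.15% of all features. The intron of Tnp2, a transition protein gene, is 171 bases long and had 6.91 ± 3.03 CPM in EtOH libraries and 13.1 ± 1.71 CPM in Control libraries (SD, n = 4 each; edgeR adjusted p = 0.186), with no overlap between the groups. Spag16, an axoneme gene, Akap4, a fibrous sheath gene, and Odf2, an outer dense fibre gene, had log2 fold changes of -1.11, -0.78 and -0.50 (adjusted p = 0.128, 0.27 and 0.466). Spag16, with 89 counts in EtOH libraries and 123 in Control libraries, was a member through its Control counts. Its p is thus no separate support for its direction. The exon sum of sperm and late spermatid genes was also lower in EtOH libraries, at 321 to 473 CPM against 518 to 622 CPM. Of that list only Smcp, Odf1 and Prm1 did not overlap between the groups. The part of that sum in these introns was not tested.

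The members with the highest fold changes were dominated by EtOH replicate 2. That library held 7.8% of all counts, but more than 50% of the counts of 17 members in 14 genes, and only 2 members had over 50% of their counts in another single library, Eif4a2 intron 5 and Rspo3. Intron 3 of Slc29a3, a nucleoside transporter gene, had 101, 1889, 105 and 62.9 CPM in EtOH replicates 1 to 4, against 42.7, 21.7, 14.3 and 19.4 CPM in Control replicates 1 to 4. Intron 0 of Inpp5f, an inositol phosphatase gene, had 25.3, 848.6, 22.7 and 38.01 CPM in EtOH libraries, against 6.33, 2.76, 2.25 and 2.46 CPM in Control libraries. Apart from replicate 2, the EtOH libraries were still above all Control libraries in both introns. With and without EtOH replicate 2 the log2 fold changes were 4.45 and 1.84 for Slc29a3 (edgeR adjusted p = 0.0525 and 0.0331) and 6.07 and 3.0 for Inpp5f. Inpp5f had 51 counts in all Control libraries together, so only its EtOH counts made it a member, and its fold change is a description.

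Gm14379 intron 0, with 500.3 CPM in EtOH replicate 2 and 27.6 to 33.2 CPM in the other EtOH libraries against 5.06 to 9.76 CPM in Control libraries, had 4.36 and 2.04 (edgeR adjusted p = 0.0525 and 0.0127). Intron 0 of Cdkn1a, the gene of a cell cycle inhibitor, chosen after its values were seen, had 4.21 and 2.07, with 23 counts in all Control libraries, and is given as a description too.

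In 2 other genes the log2 fold change was under 1 without that library. Intron 0 of Evi5l, a Rab regulator gene, had 13.6, 560.3, 15.3 and 16.01 CPM in EtOH replicates 1 to 4, against 12.9, 8.57, 5.06 and 6.14 CPM in Control replicates 1 to 4 (log2 fold change 4.2, and 0.85 without EtOH replicate 2, edgeR adjusted p = 0.224). Intron 10 of Pnck, a calmodulin-dependent kinase gene, counted in 3 rows of alternative transcripts, had 63.9 CPM in EtOH replicate 2, and 1.56 to 4.05 CPM in the other EtOH libraries against 0.843 to 3.17 CPM in Control libraries. Its log2 fold change was 3.31 with EtOH replicate 2 and 0.61 without it. Pnck reached 200 counts only through that library, so these values describe what the rule chose.

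In Dhx32, an RNA helicase gene, EtOH replicate 2 held 39.7% of the counts. Its intron, counted in 3 rows with nearly the same reads, had 4.99, 33.9, 6.21 and 14.3 CPM in EtOH replicates 1 to 4, against 1.32, 1.23, 1.69 and 1.96 CPM in Control replicates 1 to 4 for the row with the lowest p. EtOH replicates 2 and 4 were both well above the rest, and no EtOH library overlapped a Control library (log2 fold change 3.22, SE 0.64). That row had 259 counts in EtOH libraries and 23 in Control libraries, so its EtOH counts made it a member and no test is given. The sum of epididymal marker exons, nearly all from Crisp1, Adam7, Spink8 and Wfdc10, followed the same order in part. It was highest in EtOH replicate 2, and above all Control libraries in every EtOH library, though not for each gene of the list. The part of these markers in the introns was not tested.

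**Figure D5:**
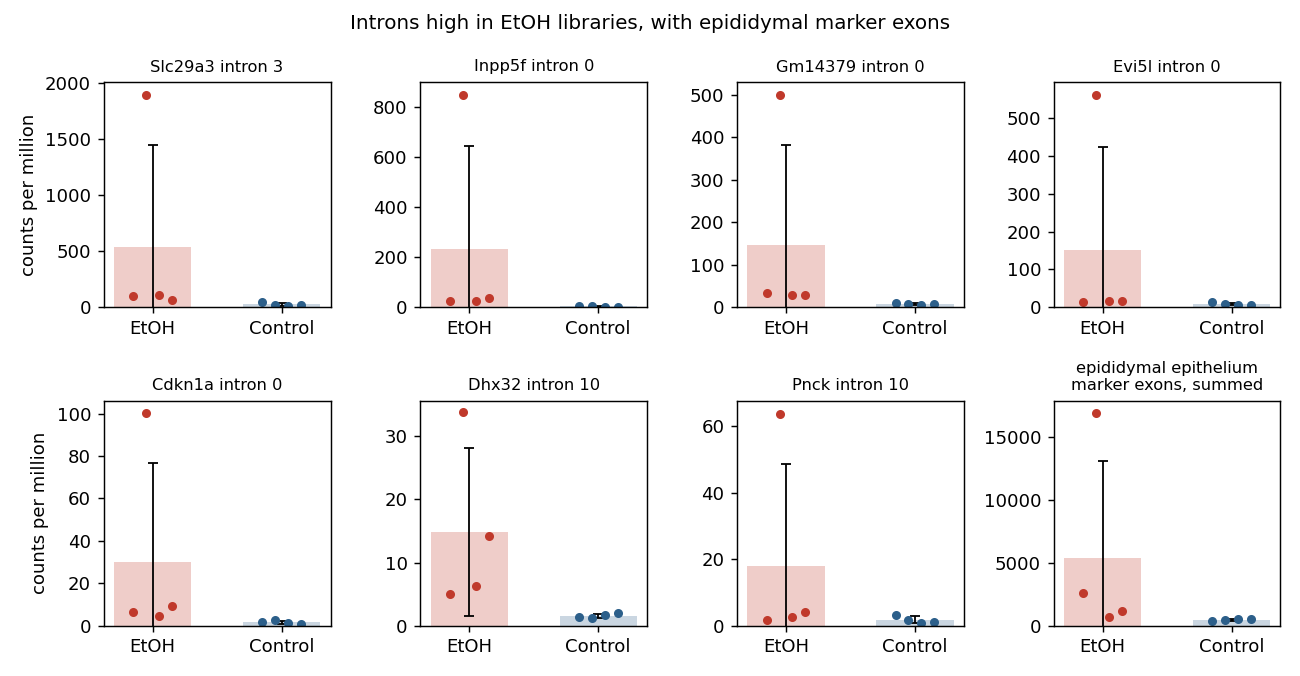
CPM in each library for 7 introns with high values in EtOH libraries and, in the last panel, the summed exons of 11 epididymal epithelium genes; EtOH in red on the left, Control in blue on the right, bars are means, error bars SD, n = 4 each. EtOH replicate 2 is the highest point in every panel, at 1889 CPM for Slc29a3 and 16900 CPM for the marker sum.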

How the data were processed

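Small RNA of mouse sperm was measured in 8 libraries. RNA was extracted with guanidinium thiocyanate and a phosphine reducing agent and only the first read was used, per the labels' protocols, and cutadapt is named for the reads in the submitters' processing notes. The deposited values are raw read counts for each annotated row. What is not given in the sources used here is the aligner, the build, the annotation and the treatment of multiply matching reads. A read may therefore be counted in several rows.

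In R 4.3.3 with edgeR 4.0.16, rows passing filterByExpr (at its default of 10 counts in a library and 15 in total) received TMM factors and a quasi-likelihood F test of EtOH against Control, with Benjamini-Hochberg adjustment over 10234 features and a threshold of 0.05. SE was derived from the F statistic. CPM of single introns use the scaled library sizes, and sums and shares use library totals. The members, host lists, markers and named introns were chosen with earlier results of these data known. Introns named are the 12 largest, those past the threshold, the 5 lowest p per direction, the 5 widest gaps between groups per direction, the 5 most concentrated in 1 library, the 3 nearest the limit, and 4 per host list. Any other intron named was picked after its values were seen. Introns were matched to GENCODE M21 through its RefSeq cross-references. Centred profiles used a pseudocount of 0.5 CPM. Alternatives were other scalings, DESeq2 1.42.0, limma 3.58.1 voom with quality weights, other filters, each library left out, and a fit with only the EtOH libraries whose identifiers start with EM, or only those with M. The edgeR step was tested on simulated data.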

Additional observations from a re-analysis of the deposited data

Results flagged for a closer look

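In 8 of the 92 sets of 4 values examined (named introns and shares in each group), 1 library lay far from the other 3 by Dixon's test at the 95% level, which chance alone does in about 1 of 20 sets. EtOH replicate 2 was that library for the introns of Slc29a3 (1889 CPM), Inpp5f (848.6 CPM), Evi5l (560.3 CPM), Gm14379 (500.3 CPM) and for each of 2 rows of Pnck (63.9 CPM), which are the same reads. Control replicate 1 was highest for Inpp5f, at 6.33 CPM beside 2.25 to 2.76 CPM in the other Control libraries, and Control replicate 3 for Rack1, at 307.1 CPM beside 184 to 203 CPM. The introns concentrated in 1 library were named for that reason, so their flags are not independent of the choice.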

How the results depend on the processing

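No paired analysis was possible because the replicate numbers follow accession order and pair nothing. The numbers of calls depended on every choice, and the cause was not tested. For all features, higher and lower in EtOH libraries, the main 5 and 14 became 1 and 8 with median-of-ratios factors and with library size alone, 1079 and 58 with scaling from intron rows, 1343 and 404 with DESeq2, 416 and 239 with limma voom, 1466 and 176 with no filter, 1 higher (10 lower) with a mean count of at least 10, 12 and 7 with EtOH libraries of EM identifiers, 2206 and 366 with those of M identifiers, and 1 to 1912 and 2 to 420 with 1 library left out. For the members, 0 higher and 1 lower became 0 lower with library size alone, with median-of-ratios factors, a mean count of at least 10 or EM identifiers (3 higher in the last), 20 and 2 with scaling from intron rows, 16 and 57 with DESeq2, 11 and 37 with limma voom, 14 and 4 with no filter, 26 and 29 with M identifiers, and 0 to 25 and 0 to 37 with 1 library left out. The members' median, -0.36, was -0.08 with library size alone, 0.10 with scaling from intron rows, -0.60 with M identifiers and -0.49 to -0.21 with 1 library left out. With limits of 100 and 500 counts the members held 4.16% and 3.20% of all counts in EtOH libraries and 3.93% and 2.88% in Control libraries, and 57.2% and 44.0% of intron counts in EtOH libraries and 53.6% and 39.3% in Control libraries. No named intron with an unadjusted p below 0.05 changed direction in any of these fits. Members near 200 counts have about 25 counts a library, which limits their precision.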
